A study of Chlorocebus aethiops with 24 samples.

Results

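SPP1, the gene of osteopontin, was followed across prenatal alcohol exposure and maturation in the hippocampus of 22 male vervet monkeys. It was 1 of 11512 probe sets in the deposited table, and it was taken as every row whose platform annotation gives SPP1 as its only symbol, which found 1 row. SPP1 was selected on its age difference, 2 years minus 5 months, in these same arrays, so its levels and its age difference are given here as a description with no test. The alcohol difference and the interaction of alcohol with age did not enter that choice and were tested.

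Osteopontin is a secreted, phosphorylated glycoprotein of the SIBLING family, acidic proteins that bind integrins and take part in the mineralization of bone and teeth. Outside bone it acts as a matrix protein and as a cytokine, and it binds integrins through an arginine-glycine-aspartate motif and the receptor CD44. In the brain it is best known as a product of activated microglia and macrophages, and some neurons and vascular cells also make it.

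All animals were captive-bred offspring of dams that preferred alcohol. Late in gestation the dams of the FASD (fetal alcohol spectrum disorder) animals were given an ethanol drink, and those of the controls an isocaloric sucrose drink. The animals were sacrificed at 5 months, as infants, or at 2 years, as juveniles, and RNA of the left hippocampus was hybridized to Affymetrix rhesus macaque arrays, each animal on an array of its own. At each age there were 6 controls and 5 FASD animals. The same dam could be given ethanol in one breeding cycle and sucrose in another, and the labels do not say which animals share a mother. Values are log2 expression intensities, in which a difference of 1 is a doubling of the signal.

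The arrays resembled each other closely, with a mean Pearson correlation of 0.988 over their 231 pairs and a lowest of 0.972. The source name of control animal 6 at 5 months gives the age as 2 years, whereas the other labels of that animal give 5 months. The animal was kept among the 5-month controls, and the age and alcohol differences of SPP1 are given with and without it. FASD animal 2 at 5 months stood apart from its group in several genes described here, among them the immature neuron gene DCX, and is treated likewise. A discarded array of that group, which held no values, carries the same number in its title and another in its source name. The study's supplement gives the discarded array a number that none of the kept animals of that group carries. The labels of the discarded array thus conflict, which leaves some doubt over the number of FASD animal 2. FASD animal 4 at 2 years also stood apart from its group. Its log2 level was 9.93 for DCX and 10.29 for SOX4, a gene of immature cells. Both were above every animal at 5 months. This animal was left out only when each animal was left out in turn. Of 12 pyramidal neuron markers 5 were measured, with a mean log2 level of 10.75 for the postsynaptic protein gene NRGN, and of 10 blood markers 0 were measured. Levels are compared between animals and not between genes, since probe sets differ in how well they bind.

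In the controls at 5 months, SPP1 was at a log2 level of 9.41, 9.69, 9.23, 9.25, 9.72 and 9.82 in animals 1 to 6. Animals 3 and 4 were lowest and animal 6, whose labels conflict, was highest. In FASD animals 2 to 6 of that age, the log2 level of SPP1 was 9.55, 9.40, 9.22, 9.23 and 9.56. These 5 animals lay within or just under the range of the controls of their age. In the controls at 2 years, the log2 level of SPP1 was 10.30, 9.68, 10.24, 10.50, 9.89 and 10.52 in animals 1 to 6. Animals 2 and 5 stood below the other 4, and animal 2 was as low as the higher controls at 5 months. In FASD animals 1, 2, 3, 4 and 6 at 2 years, the log2 level of SPP1 was 10.10, 10.16, 9.72, 9.95 and 9.89. Animal 3 was lowest of these, and animals 1 and 2 were highest.

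**Figure D1:**
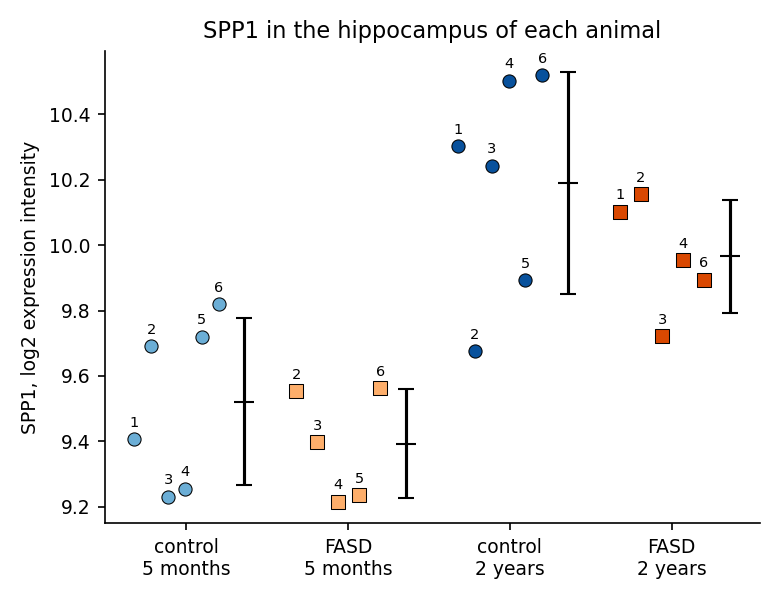
SPP1 in each animal, as log2 expression intensity on the vertical axis, for the 4 groups on the horizontal axis. Each point is 1 animal with its number, circles are controls, squares are FASD animals, and bars give the mean ± 1 SD. The 5 FASD animals at 2 years sit between 9.72 and 10.16, above the 5 FASD animals at 5 months, while control animal 2 at 2 years sits at 9.68, inside the range of the controls at 5 months.

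The mean log2 level of SPP1 was 9.39 ± 0.17 (SD, n = 5) in FASD animals at 5 months, 9.52 ± 0.26 (SD, n = 6) in controls at 5 months, 9.97 ± 0.17 (SD, n = 5) in FASD animals at 2 years and 10.19 ± 0.34 (SD, n = 6) in controls at 2 years. In this order the groups of the same age stood next to each other, and neither of these neighbouring pairs differed beyond its spread by the tests given below. Between the middle groups, controls at 5 months and FASD animals at 2 years, the difference of 0.45 exceeded the SD of either group, and 4 of 5 FASD animals at 2 years were above every control at 5 months. SPP1 also varied among animals of the same group more than most probe sets did. Its residual SD, taken around the 4 group means in log2 units, was 0.25, and the median of this quantity over all probe sets was 0.16. A residual SD at least as large was found in 1666 of the other 11511 probe sets (14.5%).

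Averaged over both exposures, the juveniles exceeded the infants in SPP1 by 0.62 log2 units (standard error 0.10), a ratio of 1.54 in normalized intensity. This difference chose the gene, so no test is given. The age difference was 0.67 (standard error 0.14) in the controls and 0.57 (standard error 0.15) in the FASD animals. All 5 FASD animals at 2 years were above all 5 at 5 months, with a gap of 0.16 between the groups. In the controls, 5 of 6 animals at 2 years were above every animal at 5 months, and the ranges overlapped by 0.14 through animal 2. Among the other probe sets, 105 (0.912%) were higher at 2 years without overlap in the FASD animals and 14 (0.122%) in the controls. An age difference of at least this size, in either direction, was found in 18 of the other probe sets (0.156%).

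Without control animal 6 at 5 months, whose labels conflict, the age difference of SPP1 was 0.65 over both exposures and 0.73 in the controls. SOX4, a transcription factor of immature cells whose level was lower at 2 years, was at a log2 level of 10.01 in that animal, inside the 9.86 to 10.26 of the controls at 5 months and above the 9.23 to 9.47 of those at 2 years. In the FASD animals at 2 years SOX4 ran from 9.18 to 10.29, the highest being animal 4, so its level in 1 animal does not settle that animal's age. Without FASD animal 2 at 5 months, the age difference of SPP1 was 0.64 over both exposures and 0.61 in the FASD animals.

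In a whole piece of tissue, more cells that express SPP1 and more SPP1 RNA per cell cannot be told apart. The mean log2 level of the 10 measured microglia and macrophage markers differed by -0.02 between the ages, with ranges of 7.56 to 7.99 in controls and 7.54 to 8.03 in FASD animals at the younger age, and of 7.57 to 7.85 and 7.49 to 7.80 at the older. The corresponding difference was 0.01 for 16 probe sets of the activated microglia programme, -0.02 for 9 of oligodendrocytes and myelin, 0.01 for 8 of astrocytes and -0.01 for 5 of mural cells and fibroblasts. The mean of 3 markers of choroid plexus and ependyma had a difference of -0.25 and ranged up to 9.25 in the controls at 5 months against at most 8.20 in those at 2 years. The ranges of these 3 markers overlapped between all groups. Members of a list could move in opposite directions, and so could the 2 exposures that each difference averages. The mean of MBP, a myelin gene, was 11.80 at 5 months and 12.13 at 2 years in controls, but 12.37 and 11.87 in FASD animals. That of MAL, another myelin gene, was 9.14 and 8.97 in controls and 9.55 and 9.03 in FASD animals. The part of these cells in the age difference of SPP1 was not tested.

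The mean of SPP1 was lower in the FASD animals than in the controls, but by less than the test could separate from 0. The alcohol difference over both ages, FASD minus control, was -0.18 on the log2 scale (95% interval -0.38 to 0.03, adjusted p = 0.631 from limma). The exact permutation test, two-sided, over 213444 arrangements of the animals within age gave p = 0.110. For alcohol, 0 of the other probe sets (0%) passed an adjusted p under 0.05 in limma, and 972 (8.44%) had an unadjusted p under 0.05, with 692 of them (6.01% of all the others) lower in FASD. SPP1 itself had an unadjusted p of 0.0931 from limma.

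At 5 months the alcohol difference of SPP1 was -0.13 (95% interval -0.42 to 0.17, adjusted p = 0.949 from limma, p = 0.357 from the two-sided exact permutation test over 462 arrangements). At 2 years it was -0.22 (95% interval -0.52 to 0.07, adjusted p = 0.804 from limma, p = 0.212 from the two-sided exact permutation test). The ranges overlapped at both ages, and of the other probe sets 4.83% at 5 months and 6.05% at 2 years had an unadjusted p under 0.05. At 5 months 3 of 6 controls were above every FASD animal, and at 2 years 4 of 6 controls were above every FASD animal, whereas 0 of 5 FASD animals at 2 years were below every control. Control animal 2 at 2 years held the lower end of its group, and without it the difference at 2 years was -0.33 (unadjusted p = 0.0203, adjusted p = 0.271, both from limma). Since this animal was the lowest control, leaving it out could only make the difference more negative. Without control animal 6 at 5 months, the difference was -0.07 at 5 months and -0.15 over both ages, and without FASD animal 2 at 5 months it was -0.17 and -0.20.

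The interaction, the alcohol difference at 2 years minus that at 5 months, was -0.10 for SPP1 (95% interval -0.51 to 0.32, unadjusted p = 0.636 from limma). This interval holds values larger in size than the alcohol difference of SPP1 at either age. For the interaction, 0 of the other probe sets (0%) passed an adjusted p under 0.05 in limma and 345 (3%) had an unadjusted p under 0.05.

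Osteopontin acts on cells through integrins and CD44, and 4 of 10 listed receptor genes were measured. None of the 4 passed an adjusted p under 0.05 for age in limma, a call made for 15 of the other 11511 probe sets (0.13%), and 1 had an unadjusted p under 0.05 (9.56% of the others, 4.67% with a higher and 4.89% with a lower level at 2 years). ITGB3, the beta 3 chain that pairs with alpha v to bind osteopontin, had an age difference of 0.11 (unadjusted p = 0.0147, adjusted p = 0.370). Its log2 level ran from 5.95 to 6.21 in the controls at 5 months and from 6.09 to 6.35 in those at 2 years. In the FASD animals it ran from 6.10 to 6.22 at 5 months and from 6.14 to 6.29 at 2 years, so the ages overlapped in both exposures. ITGAV, the alpha v chain common to several osteopontin receptors, had an age difference of 0.10 and an alcohol difference of 0.20. ITGB5, another partner of alpha v, and ITGA8, an alpha chain that binds osteopontin with beta 1, had age differences of -0.02 and -0.08.

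The other members of the SIBLING family were read at low intensity. IBSP, the gene of bone sialoprotein, had group means between 4.01 and 4.06, MEPE, which encodes a matrix phosphoglycoprotein of bone, between 4.88 and 4.96, and DSPP, the gene of dentin sialophosphoprotein, between 5.25 and 5.49. Their age differences were 0.03, -0.02 and 0.05. Over both exposures or both ages, 0 of these 3 had an unadjusted p under 0.05 for age (9.56% of the others) or for alcohol (8.44%). With 3 genes, counts of 0 are near those shares. At 2 years the alcohol difference was 0.23 for DSPP (unadjusted p = 0.0212, adjusted p = 0.793 from limma), against 0.04 for IBSP and 0.07 for MEPE. Among 12 genes whose products modify or cleave osteopontin, FAM20C, the secretory pathway kinase that phosphorylates it, was the 1 measured, with an age difference of -0.10 (standard error 0.07).

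Of 12 transcription factors known to bind the SPP1 promoter or to act on the gene, 7 were measured and 0 passed an adjusted p under 0.05 for age (0.13% of all the others). FOS, a subunit of the AP-1 factor that follows neuronal activity, had an age difference of -0.58 (unadjusted p = 0.0197, adjusted p = 0.397 from limma). Of 16 genes of integrin signalling, 13 were measured in 15 probe sets, with a median age difference of 0.06 against 0.00 over all probe sets. PTK2, the focal adhesion kinase, had an age difference of 0.14 (unadjusted p = 0.0079, adjusted p = 0.290 from limma). NFKB1, a subunit of the NF-kappa-B factor, had an alcohol difference of -0.12 (unadjusted p = 0.0259, adjusted p = 0.579 from limma). It was -0.21 at 5 months and -0.03 at 2 years. Of 15 other matrix ligands of integrins, 5 were measured. THBS1, the gene of thrombospondin 1, had an age difference of -0.55 (unadjusted p = 0.0055, adjusted p = 0.263 from limma). TNC, the gene of tenascin C, had an alcohol difference of -0.29 (unadjusted p = 0.0317, adjusted p = 0.580 from limma). Of the 130 probe sets over all 20 lists, 1, that of SOX4, passed an adjusted p under 0.05 for age, against 0.13% of all the others.

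To describe which genes varied with SPP1 among animals of the same group, the mean of each group was removed and Pearson's r was taken over the 22 deviations. The values of r are descriptions with no test. They come from the same arrays, and the deviation of SPP1 was itself correlated with each array's median log2 value, at r = -0.41. The 2 animals farthest from the median deviation of SPP1 were control animals 2 and 5 at 2 years, at -0.51 and -0.30. The median r of all other probe sets was -0.07. An r of at least 0.5 was found in 321 of them (2.79%), and an r of at most -0.5 in 569 (4.94%). An r of at least 0.7 was found in 13 (0.113%), and an r of at most -0.7 in 18 (0.156%).

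The gene with the highest r was ETNPPL, an enzyme of astrocytes that breaks down phosphoethanolamine, at 0.82 (Spearman's rho 0.79). In the controls at 5 months, the log2 level of ETNPPL ran from 9.43 in animal 3 through a median of 9.95 to 10.17 in animal 5. These animals were also lowest and second highest in SPP1 within that group. In the controls at 2 years it ran from 9.27 in animal 2 through a median of 9.91 to 10.12 in animal 6, the same animals that were lowest and highest in SPP1. In FASD animals 2 to 6 at 5 months ETNPPL was at 9.92, 9.62, 9.28, 9.56 and 9.98, and in juveniles 1, 2, 3, 4 and 6 of that exposure the values were 9.79, 9.96, 9.26, 9.71 and 9.53. In both FASD groups the lowest and the highest animal of ETNPPL were those of SPP1. The r of ETNPPL was 0.71 over the animals at 5 months, 0.90 over those at 2 years, 0.80 over the controls and 0.96 over the FASD animals, and 0.77 without the 2 farthest animals. In contrast to SPP1, ETNPPL had an age difference of -0.05 (standard error 0.11, adjusted p = 0.939 from limma).

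HPS5, part of a complex that builds lysosome-related organelles, had an r of 0.79 with SPP1, and 0.70 without the 2 farthest animals. C18H18orf21, PLSCR1, an interferon-induced scramblase of membrane phospholipids, DZIP1, a protein of the primary cilium, RNF114, a ubiquitin ligase, KIAA1143, TYMS, which makes thymidylate for DNA synthesis, and EAF2, a partner of transcription elongation factors, followed with an r between 0.72 and 0.78. The 10th was GPNMB, a membrane glycoprotein of phagocytic macrophages and microglia, at 0.71. GPNMB had a second, dimmer probe set whose r was 0.21, so its probe sets disagreed. Without the 2 farthest animals these 10 genes had an r between 0.51 and 0.77.

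At the other end stood NAXD, which repairs damaged NADH and NADPH, at an r of -0.81. In the controls at 2 years its log2 level ran from 7.83 in animal 6 through a median of 8.24 to 8.51 in animal 2, the reverse of their order in SPP1. ZDHHC5, a palmitoyltransferase of neurons, had an r of -0.79, and PARP6, an ADP-ribosyltransferase, one of -0.76. FKBP4, a co-chaperone of HSP90, DHX8 and CD2BP2, both of the splicing machinery, BICD1, a dynein adaptor, ZNF692, a zinc finger protein, TANC2, a postsynaptic scaffold, and GABARAPL1, a protein of autophagosomes, had an r between -0.74 and -0.71. These 10 genes had an r between -0.79 and -0.57 without the 2 farthest animals. For DHX8 the r was -0.90 over the controls and -0.37 over the FASD animals, a difference that was not tested.

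**Figure D2:**
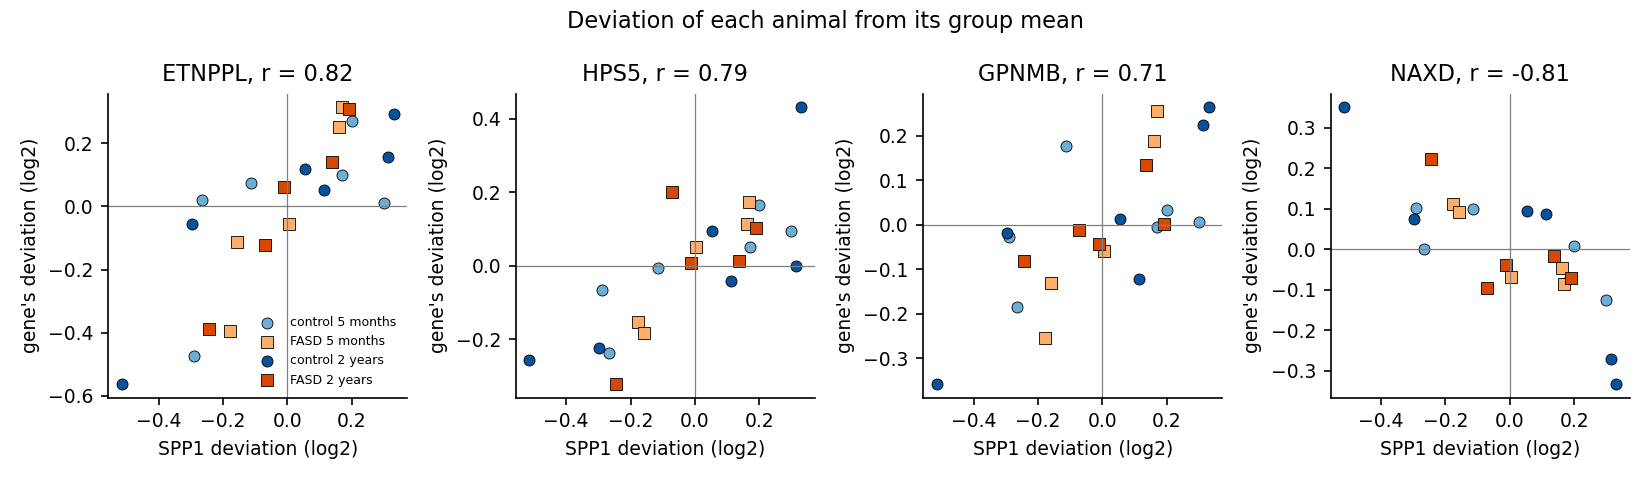
Deviation of each animal from its group mean on the log2 scale, SPP1 on the horizontal axes and 1 gene on each vertical axis, with 1 point per animal, circles for controls and squares for FASD animals. ETNPPL (r = 0.82), HPS5 (r = 0.79) and the brighter probe set of GPNMB (r = 0.71) slope upwards and NAXD (r = -0.81) slopes downwards, and control animal 2 at 2 years, at an SPP1 deviation of -0.51, lies at the left end of each panel.

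Among the 20 genes that varied most with SPP1 among animals of a group, 0 passed an adjusted p under 0.05 for age in limma (0.13% of all the others), with a lowest adjusted p of 0.425, and 2 had an unadjusted p under 0.05 (9.56% of all the others). Both counts were near the shares over all probe sets. The age differences of the 10 positive genes lay between -0.05 and 0.09, and those of the 10 negative genes between -0.16 and 0.15. The 2 with an unadjusted p under 0.05 were PARP6, with an age difference of -0.12, and BICD1, with one of -0.16. For PARP6 it was -0.25 in the controls and 0.02 in the FASD animals, and for BICD1 -0.13 and -0.19. For alcohol 9 of the 10 positive genes had a difference below 0, as did 53.2% of the other probe sets, and these genes were chosen for their r with SPP1 in the same animals. Of these 10 genes 1, DZIP1, had an unadjusted p under 0.05 for alcohol (8.44% of all the others), a count near that share. Its alcohol difference was -0.27 (unadjusted p = 0.0012, adjusted p = 0.579 from limma).

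The within-group r was also read for the genes that differed between the ages. SPP1 was left out of this count, since its age difference chose it. Of the other 11511 probe sets, 15 passed an adjusted p under 0.05 for age in limma, and 11 of these carry a single symbol. Of the 15, 5 were higher at 2 years (0.0434%) and 10 lower (0.0869%). The within-group r of the 15 with SPP1 lay between -0.49 and 0.60. An r of at least 0.5 in size was found in 1 of the 15, a share near the 7.73% of all the others. TRIM22, an interferon-induced antiviral protein, was higher at 2 years by 0.65 and had an r of 0.14. SEMA3C, a secreted guidance molecule, had an age difference of -1.02 and an r of 0.02, and SOX4 an age difference of -0.62 and an r of 0.04. RUBCNL, a protein of autophagy, was higher at 2 years by 0.31 and had an r of -0.15.

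**Figure D3:**
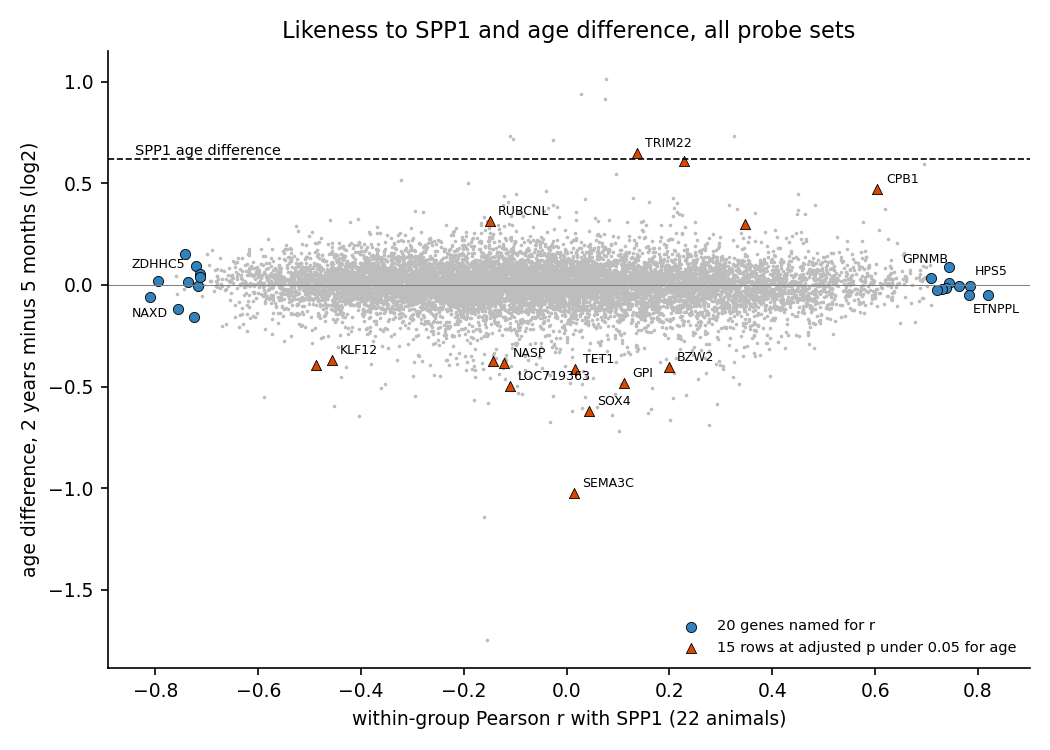
Age difference on the log2 scale (2 years minus 5 months, vertical axis) against the within-group r with SPP1 over 22 animals (horizontal axis), 1 point per probe set. The 20 genes named for their r lie at the far left and far right between -0.16 and 0.15 on the vertical axis, the 15 probe sets at adjusted p under 0.05 for age are triangles, and the dashed line marks the age difference of SPP1, 0.62.

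The 1 of these 15 with an r of at least 0.5 in size was CPB1. It encodes a carboxypeptidase that removes basic residues from the ends of proteins, and its log2 level ran from 3.50 to 4.03 in controls and from 3.68 to 3.99 in FASD animals at the younger age. In the juveniles its log2 level ran from 4.00 to 4.79 in controls and from 4.00 to 4.46 in FASD animals. In the FASD animals the ages did not overlap, and in the controls they overlapped only through control animal 6 at 5 months, at 4.03, and control animal 5 at 2 years, at 4.00. Its age difference was 0.47 (standard error 0.08, adjusted p = 0.0155 from limma), 0.50 without control animal 6 at 5 months and 0.49 without FASD animal 2 of that age, and its within-group r with SPP1 was 0.60. CPB1 was read at low intensity, under that of most probe sets.

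Over all 22 animals with the group means left in, so that the age difference that chose SPP1 counts towards the likeness, CPB1 was the gene most like SPP1, with r = 0.83. PDE8A, a phosphodiesterase of cyclic AMP, followed at 0.78, the locus LOC697471 at 0.75 and CLDND1, a membrane protein of the claudin family, at 0.72. ABCA8, a lipid transporter, stood among the first 5 by one probe set, at 0.75, but its brighter probe set had an r of -0.39. The age differences of these probe sets were 0.27 and -0.08, and their within-group r was 0.61 and -0.61, so the gene's likeness to SPP1 is not settled. Most opposed were TLCD3B at -0.77, CENPV, a centromere protein, at -0.76, KLF12, a transcriptional repressor, at -0.75, PARP6 at -0.75 and OSBP2, an oxysterol-binding protein, at -0.74. Of these 10 genes, CPB1 and KLF12 passed an adjusted p under 0.05 for age, against 0.13% of all the others. KLF12 had an age difference of -0.37 (adjusted p = 0.0297 from limma). Since the age difference of SPP1 helped to choose these 10 genes, their count is a description only. PARP6 also stood among the 10 lowest by the within-group r.

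Microglia and macrophages, for which osteopontin is a known product, gave different pictures by list. Of the 10 measured general markers of these cells, 5 had a positive within-group r with SPP1 and the median was 0.01, against a median of -0.07 over all probe sets. CSF1R, the growth factor receptor on which microglia depend, had an r of -0.42. C1QA, a chain of the first complement component made by microglia, had an r of -0.05 and an age difference of -0.36 (unadjusted p = 0.0012, adjusted p = 0.171 from limma), opposite in sign to that of SPP1. In the list of genes of the activated microglia programme, 12 of 16 probe sets had a positive r, with a median of 0.19 and a range from -0.35 to 0.71. This list holds GPNMB, and several of its members are also made by other cells of the hippocampus, as APOE is by astrocytes.

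FABP5, a carrier of fatty acids, had an r of 0.53, APOE, the main apolipoprotein of the brain, one of 0.51, and LGALS3, the gene of galectin 3, one of 0.50. CD9, a tetraspanin, and B2M, the light chain of class I histocompatibility molecules, had an r of 0.47 and 0.40. B2M had an alcohol difference of -0.32 (unadjusted p = 0.0268, adjusted p above 0.05 from limma). CD9 had an age difference of -0.29 (unadjusted p = 0.0260, adjusted p = 0.427 from limma). Its mean was 10.25 at 5 months and 10.21 at 2 years in controls, but 10.65 and 10.11 in FASD animals. FASD animal 2 at 5 months had the highest CD9, at 11.32. The mean of the 16 probe sets had an r of 0.59 with SPP1 over the 22 animals, and 0.62 without the 2 farthest, while the mean of the 10 general markers had an r of -0.08. The age difference of the programme's mean was 0.01, and that of the dimmer probe set of GPNMB was 0.38 (unadjusted p = 0.0329, adjusted p = 0.461 from limma). The brighter probe set of GPNMB, the one with an r of 0.71, had an age difference of 0.03 (unadjusted p = 0.636, adjusted p = 0.932 from limma).

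Members of other lists also varied with SPP1. The mean of 8 astrocyte probe sets had an r of 0.41, with SLC1A3, the glial glutamate transporter, at 0.51 and AGT, angiotensinogen, at 0.44. The mean of 8 interferon and cytokine probe sets also had an r of 0.41, with IFIT1, an interferon-induced antiviral protein, at 0.59. IFIT1 varied widely, from 7.07 to 8.86 in the controls at 5 months. The mean of 9 oligodendrocyte and myelin probe sets had an r of 0.31, with UGT8, an enzyme of myelin lipid synthesis, at 0.42 and MBP, myelin basic protein, at 0.38. The mean of 15 integrin signalling probe sets had an r of -0.42, with the kinase SRC at -0.51, and that of 5 endothelial probe sets one of -0.32, with the junction protein PECAM1 at -0.57. Among the factors that act on the SPP1 gene, VDR, the vitamin D receptor, had an r of -0.50 and RUNX2, a factor of bone formation, one of -0.40. For the receptors the r was -0.43 for ITGB3, -0.23 for ITGA8, -0.03 for ITGAV and 0.11 for ITGB5, and for the SIBLING genes it was -0.07 for IBSP, 0.23 for DSPP and -0.18 for MEPE.

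**Figure D4:**
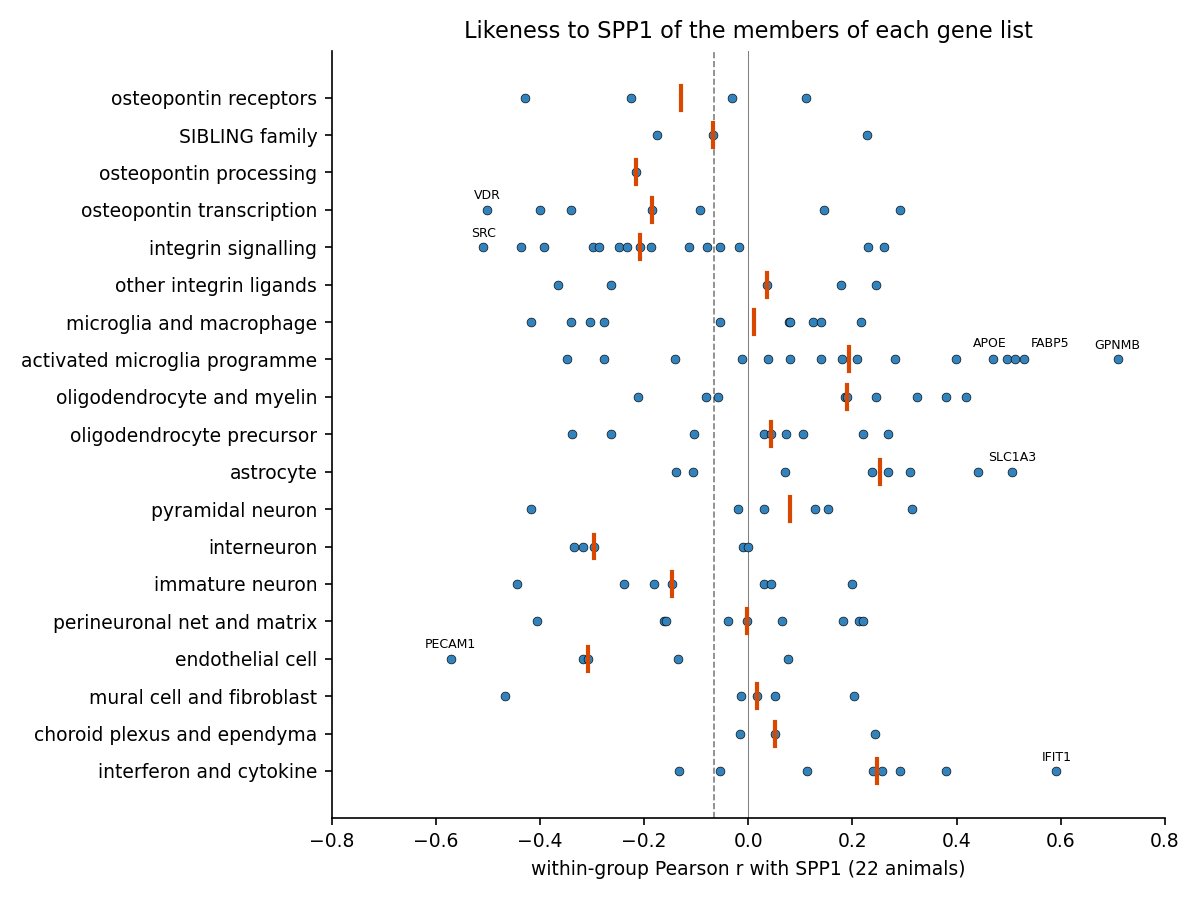
Within-group Pearson r with SPP1 over 22 animals (horizontal axis) for each measured probe set of 19 gene lists (rows), with the list's median as a vertical bar and the median of all probe sets, -0.07, as the dashed line; genes with an r of at least 0.5 in size are named. The activated microglia programme reaches from -0.35 to 0.71 and the general microglia and macrophage markers from -0.42 to 0.22.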

How the data were processed

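Hippocampal RNA of 22 vervet monkeys had been measured on rhesus macaque arrays. The authors deposited log2 intensities made by RMA (background correction, quantile normalization and summary of each probe set), with no software version stated in the sources used. Per the study's methods, they kept annotated probe sets that MAS 5.0 detected in 6 or more arrays, and of these the brightest for each gene. RMA can compress differences, and macaque probes can bind vervet RNA less well, so fold changes may be understated. The authors discarded 2 arrays as outliers, and these 2 columns were not used. The platform annotation gave 1 symbol to 8730 of 11512 rows, several to 88 and none to 2694, and only rows with 1 symbol were named. By this annotation some genes, GPNMB among them, kept more than 1 row.

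A mean per group was fitted to every row with limma 3.58.1 in R 4.3.3, with empirical Bayes moderation and Benjamini-Hochberg adjustment over all rows. This tests the same means as the two-way analysis of variance that the methods name, which was run as an alternative. For SPP1 alone, animals were also permuted exactly within age, two-sided. Likeness to SPP1 was Pearson's r of the deviations from the group means over 22 animals. Nothing in the labels ties an animal to a litter, and p-values measure the spread between these animals. The scripts were tested on simulated data. The number of arrays limits the precision. Plots used Python 3.11.15 and matplotlib 3.10.9.

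SPP1, the 20 gene lists (252 genes, 123 measured) and the tests were chosen with earlier results of these data known. The genes named were the measured receptors, SIBLING genes and processing enzymes, the 10 of highest and 10 of lowest r, the 5 most and 5 least like SPP1 over all animals, and from each other list every member past an adjusted p under 0.05, up to 4 of lowest p for age, up to 2 for alcohol and up to 3 of largest r in size. TRIM22, SEMA3C and RUBCNL fall outside this rule and were named after their values were seen. Alternatives were that analysis of variance, robust variances with an intensity trend, centring, quantile normalization, array weights, only probe sets above the median level, the replicate number as a block, Spearman's rho, leaving out the 2 animals farthest in SPP1 and leaving out each animal. Leaving out the 2 animals in doubt for CPB1 and DCX was chosen after seeing the data.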

Additional observations from a re-analysis of the deposited data

Results flagged for a closer look

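In 77 probe sets of the genes named here, each of the 4 groups was searched for a single animal that stood far from the others, by Dixon's test at the 95% level. Of 308 groups, 18 held such an animal, where chance gives about 1 in 20. SPP1 itself had none. The values are given with no explanation.

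Among the genes that varied with SPP1, control animal 3 at 5 months had the lowest ETNPPL, at a log2 level of 9.43 against 9.91 to 10.17 in the other controls of that age. In the same animal GABARAPL1 was at 8.59 against 8.19 to 8.30. FASD animal 2 at 5 months had EAF2 at 4.83 against 4.48 to 4.57, and FASD animal 6 of that age had PLSCR1 at 5.83 against 5.32 to 5.45. FASD animal 3 at 2 years, the lowest of its group in SPP1, had NAXD at 8.59 against 8.27 to 8.35 and OSBP2 at 9.01 against 8.85 to 8.89.

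Among receptors and relatives of osteopontin, ITGB3 was at 6.09 in control animal 1 at 2 years against 6.26 to 6.35 in the others. FASD animal 2 at 2 years had ITGB5 at 8.18 against 7.89 to 7.96 and MEPE at 5.56 against 4.71 to 4.95. THBS1 was at 4.79 in FASD animal 4 at 2 years against 3.40 to 3.74. The kinase SRC was at 6.50 in control animal 5 at 2 years, the second lowest of its group in SPP1, against 6.04 to 6.14.

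IFIT3, an interferon-induced antiviral protein, was at 10.24 in control animal 2 at 5 months against 7.97 to 8.75 in the others, and at 8.92 in FASD animal 2 of that age against 7.96 to 8.14. DCX, a microtubule protein of immature neurons, was at 9.24 in FASD animal 2 at 5 months against 9.66 to 9.80. Control animal 4 at 5 months had ACAN, the proteoglycan aggrecan, at 7.58 against 7.81 to 7.94 and NEU4, a sialidase, at 7.09 against 6.75 to 6.85. NRGN was at 10.98 in control animal 2 at 2 years, the lowest of its group in SPP1, against 10.47 to 10.64. STMN2, a microtubule protein of growing neurites, was at 12.22 in control animal 6 at 2 years, the highest of its group in SPP1, against 12.66 to 12.84.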

How the results depend on the processing

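The alcohol difference, the interaction and the age difference of SPP1 kept their direction under every alternative, and none of the alcohol differences or the interaction passed an adjusted p under 0.05. With array weights the alcohol difference of SPP1 was -0.24 (unadjusted p = 0.0130, adjusted p = 0.245 from limma), and at 2 years it was -0.28 with an unadjusted p of 0.0473 (adjusted p = 0.467 from limma). Leaving out each animal in turn, it lay between -0.23 (without control animal 2 at 2 years, unadjusted p = 0.0197, the lowest adjusted p being 0.270) and -0.14, that at 2 years between -0.33 and -0.16, that at 5 months between -0.19 and -0.07 and the interaction between -0.20 and -0.03. The age difference lay between 0.59 and 0.67, that of the controls between 0.60 and 0.77 (without control animal 2 at 2 years) and that of the FASD animals between 0.53 and 0.63.

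Counts over many probe sets moved more. Probe sets at adjusted p under 0.05 for age numbered 15, but 9 by the analysis of variance, 70 with array weights and 10 to 43 (without FASD animal 4 at 2 years) when each animal was left out. Those at unadjusted p under 0.05 for alcohol numbered 972, but 1673 with array weights, 433 among probe sets above the median level and 689 to 1678 (without control animal 2 at 2 years) when each animal was left out, and those for the interaction 345, but 724, 145 and 253 to 755 (without the same animal). List members at adjusted p under 0.05 for age numbered 1, but 3 with array weights and 1 to 3 when each animal was left out. Those at unadjusted p under 0.05 for alcohol numbered 13, but 28 with array weights, 5 above the median level and 7 to 20 when each animal was left out, and those for age 24, but 10 above the median level, where fewer probe sets were tested, and 20 to 28 when each animal was left out. Apart from that the cause was not tested.

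Probe sets with an r of at least 0.5 with SPP1 numbered 321, but 680 with each array centred on its median and 243 to 569 (without control animal 1 at 5 months) when each animal was left out, and those at most -0.5 numbered 569, but 394 to 937 (without control animal 5 at 2 years). The median r of the activated microglia programme was 0.19, but 0.32 under quantile normalization, and lay between 0.13 and 0.29 when each animal was left out. Without the 2 animals farthest in SPP1 the r was 0.59 for DZIP1, 0.62 for RNF114, 0.51 for KIAA1143, -0.57 for DHX8 and -0.58 for TANC2.

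The study's methods describe age-matched cases and controls sacrificed in alternation. The labels do not say whether a shared replicate number marks such a match, and the values do not settle it. Of 30 pairs with the same number 13 had a correlation over 0.1. The mean was 0.07, against -0.01 for animals of different groups and numbers, and 4 of 22 animals correlated best with one of their own number. With the replicate number as a block, 30 probe sets passed an adjusted p under 0.05 for age, against 15 without it. The list members that passed were 3 with the block, against 1 without it. The alcohol difference of SPP1 with the block was -0.18 (adjusted p = 0.614 from limma). The mean of several SPP1 rows could not be taken, since there was 1 row.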

Other observations

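Several lists of developing cells and of matrix, not described above, held members with negative age differences, of which SOX4 alone passed an adjusted p under 0.05. Of 9 oligodendrocyte precursor probe sets, 5 had an unadjusted p under 0.05 and a negative age difference, against 4.89% of all probe sets. SOX11, a partner of SOX4 in immature neurons and glia, had an age difference of -0.61 (adjusted p = 0.0614 from limma) and an r of 0.03 with SPP1, and GPR17, a receptor of maturing oligodendrocytes, had one of -0.49 (adjusted p = 0.251) and an r of 0.11. Of 7 immature neuron probe sets 3 had an unadjusted p under 0.05 and a negative age difference, among them DCX at -0.37 (adjusted p = 0.139, and -0.41 without FASD animal 2 at 5 months), with an r of -0.18. Of 9 probe sets of the perineuronal net and matrix, 4 did so and 1 had a positive difference. HAPLN1, a link protein of these nets, had an age difference of -0.29 (adjusted p = 0.129) and an r of 0.06, and ADAMTS4, a protease that cleaves aggrecan, had an alcohol difference of 0.52 (adjusted p = 0.579) and an r of 0.21. Of the myelin genes, MAL had an age difference of -0.34 (adjusted p = 0.209) with an r of 0.24, and MYRF, the factor that starts myelin gene expression, one of 0.15 (adjusted p = 0.420) with an r of -0.06.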
